A study of Mus musculus with 7 samples.

Results

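The enzymes and carriers of glycolysis, the pentose phosphate pathway and the citrate cycle were followed as a list of 45 genes in MN9D cells, a mouse hybrid line of embryonic midbrain neurons and neuroblastoma that makes dopamine. A gene was represented by the probe set, annotated to it alone, that had the highest average across the 7 arrays. Of the 45 genes, 40 had such a probe set among the 12393 genes so represented, and Gapdh was measured only on array control probe sets. Gpi1, Eno1, Mpc2 and G6pdx had no probe set annotated to them alone and were not analysed here. One group of 4 arrays came from MN9D cells labelled as overexpressing the alpha and beta chains of mouse hemoglobin. The other group of 3 arrays came from MN9D cells carrying an empty vector, and 1 more control array among the 8 hybridised did not pass the submitters' quality check and is not analysed here. The labels do not say which promoter drove the globins, whether each group was a single clone or a pool, or whether replicates were separate cultures. The p-values therefore rest on array-to-array spread alone, and that spread may be technical. The design text asks what globin expression does to the cells. Values are RMA expression values on the log2 scale. A change is the globin-labelled mean minus the empty vector mean, given as mean difference ± standard error from limma, with SDs named as such. A gene was called changed, or said to have risen or fallen, at a Benjamini-Hochberg adjusted p under 0.05 over all 22626 probe sets tested, of which 39.5% were called. Permutation tests are two-sided.

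Glycolysis splits glucose into pyruvate, and its flux is set mainly at hexokinase, phosphofructokinase and pyruvate kinase. Pyruvate is either reduced to lactate and exported with protons by monocarboxylate carriers, or taken into mitochondria, where pyruvate dehydrogenase and pyruvate carboxylase feed the citrate cycle. The pentose phosphate pathway branches off at glucose phosphate and supplies NADPH and ribose. Nervous tissue expresses particular isozymes of several steps, such as the aldolase gene Aldoc and the enolase gene Eno2, beside the forms found in most cells.

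The label matched the signal for alpha-globin, whose 3 probe sets shared by Hba-a1 and Hba-a2 rose by 5.16 to 7.15, while the probe sets annotated to Hba-a1 or Hba-a2 alone did not pass. For beta-globin 1 of 3 adult probe sets rose, by 0.34 ± 0.07 (limma adjusted p = 0.00558). It was dim, with means of 6.28 and 6.61 at the 20.7th percentile of levels. The brightest of the 3, with means of 8.80 and 8.92, did not pass (limma adjusted p = 0.149). The 4 arrays are therefore called globin-labelled. Array medians lay between 8.90 and 8.94. Of the dopaminergic markers, Th and Ddc lay above the array median and both fell, while Slc6a3, Nr4a2 and Pitx3 lay below it. Of the measured markers of astrocytes (5), oligodendrocytes (4), microglia and macrophages (5) and fibroblasts (5), 0 lay above the array median, and Mbp and Cd68 were the ones called, both lower. The summed signal of the 5 dopaminergic markers was 12.22 to 12.38 in empty vector arrays and 11.77 to 11.84 in globin-labelled arrays (log2), and that of 5 general neuronal markers 13.80 to 13.96 and 13.64 to 13.79. Of the neuronal markers Tubb3 and Map2 fell by 0.80 and 0.48, Stmn2 fell 2.29-fold, and Snap25 rose by 0.40. The same sums were 9.10 to 9.14 and 9.06 to 9.18 for astrocytes, 9.10 to 9.15 and 8.70 to 8.76 for oligodendrocytes, 9.12 to 9.20 and 8.65 to 8.89 for microglia and macrophages, and 8.98 to 9.01 and 8.93 to 9.06 for fibroblasts. The part of these shifts in the results below was not tested. In bulk RNA, fewer cells of a type and less RNA per cell cannot be told apart.

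Of the 40 measured genes, 19 rose and 5 fell in the globin-labelled arrays, and 16 did not pass the test. The shares, 47.5% higher and 12.5% lower, stand beside 20.6% higher and 20.1% lower over all 12393 genes, of which 40.7% were called in either direction. The median change was 0.10 against 0.02 over all genes. These genes are bright, with a median level at the 90.8th percentile of probe sets. Among genes at or above the 75th percentile of levels, a comparison added after the data were seen, 24.7% were higher and 26.7% lower, whereas 15 of the 34 listed genes that bright were higher and 5 lower. Rises of at least 1.5-fold were made by 6 of the 40, Aldoc, Slc16a3, Pfkl, Idh2, Pfkm and Pcx, and falls of that size by 0, where 2.89% and 2.39% of all genes reached it. The 5 falls ranged from 0.15 to 0.30 on the log2 scale. The 2 groups did not overlap at 20 genes in the higher and 7 in the lower direction, against 23.1% and 22.6% of all genes (45.7% in either). With globin-labelled array 4 and empty vector array 1 both left out, the arrays set apart in earlier results, 15 rose and 5 fell. Leaving out empty vector array 2 left 18 higher and 3 lower calls.

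**Figure D1:**
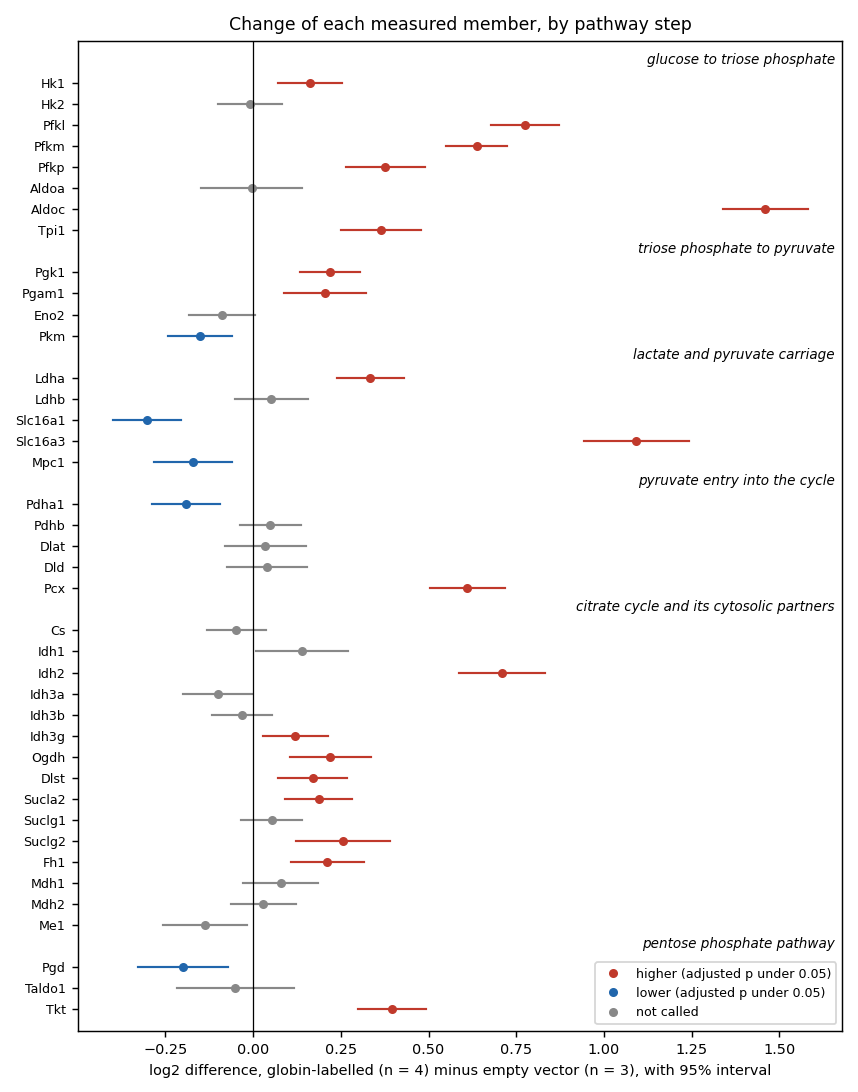
Log2 difference of each of the 40 measured genes (globin-labelled, n = 4 arrays, minus empty vector, n = 3 arrays) with its 95% interval from limma, grouped by pathway step and coloured by the call. Aldoc and Slc16a3 lie farthest to the right, at 1.46 and 1.09, the 3 phosphofructokinase genes between 0.38 and 0.77, and the 5 called falls between -0.30 and -0.15.

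The 250 bases before the RefSeq start of 3 genes with large rises and of the gene with the largest fall are shown because they let the upstream sequence of genes that moved in opposite directions be compared. They are RefSeq sequences of GRCm38.p6, 5′ to 3′ on the gene's strand, from chr11:78322823-78323072, plus strand (the first of the Aldoc starts), chr11:120948817-120949066, plus strand, chr10:78009808-78010057, minus strand, and chr3:104638414-104638663, plus strand. Capitals mark ACGTG or GCGTG on either strand, the core letters of the hypoxia response element, of which ACGTG also lies within the E-box CACGTG.
Aldoc: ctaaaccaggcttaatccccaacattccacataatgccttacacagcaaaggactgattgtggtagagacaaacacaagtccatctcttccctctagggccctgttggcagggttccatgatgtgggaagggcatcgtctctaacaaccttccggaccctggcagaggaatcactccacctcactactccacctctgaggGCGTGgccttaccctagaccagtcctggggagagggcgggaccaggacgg
Slc16a3: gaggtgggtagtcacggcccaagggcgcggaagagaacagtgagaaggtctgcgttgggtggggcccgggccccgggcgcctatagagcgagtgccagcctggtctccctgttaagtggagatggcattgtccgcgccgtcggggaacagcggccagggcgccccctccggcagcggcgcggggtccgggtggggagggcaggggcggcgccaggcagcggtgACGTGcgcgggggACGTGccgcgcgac
Pfkl: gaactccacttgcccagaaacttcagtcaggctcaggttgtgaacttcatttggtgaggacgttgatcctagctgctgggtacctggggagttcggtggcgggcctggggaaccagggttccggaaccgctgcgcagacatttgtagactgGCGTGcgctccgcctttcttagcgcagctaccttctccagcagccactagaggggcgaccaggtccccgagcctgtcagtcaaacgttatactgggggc
Slc16a1: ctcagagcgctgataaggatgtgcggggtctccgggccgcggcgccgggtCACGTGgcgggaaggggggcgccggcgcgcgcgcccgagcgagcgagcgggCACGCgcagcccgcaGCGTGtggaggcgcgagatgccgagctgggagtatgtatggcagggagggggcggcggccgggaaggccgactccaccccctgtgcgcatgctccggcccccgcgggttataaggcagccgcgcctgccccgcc
Aldoc and Pfkl each held 1 GCGTG in this window and Slc16a3 held 2 ACGTG. Slc16a1, which fell, held 2 matches of GCGTG (1 of them on the other strand, printed CACGC) and a CACGTG, which reads as ACGTG on both strands. RefSeq gave windows for 44 of the 45 genes (65 windows in all, the exception being Idh3a), of which 70.8% held at least 1 match, against 38.6% of all 32851 windows and 50.6% of the 12566 windows of genes on the array. By gene, a match in any window was found for 15 of 19 genes that rose, 5 of 5 that fell and 10 of 15 that did not pass. The share by gene was 55.7% of the 9887 genes on the array with a window and 41.5% of all genes with one. The letters were thus present in most genes of each kind, and a match is a description of the sequence and not a binding site.

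From glucose to triose phosphate, 6 of 8 measured genes were higher and 0 lower by limma (over all genes, 20.6% and 20.1%), with a median change of 0.37. At an unadjusted p under 0.05 in limma, 0 of the 8 were lower as well. The aldolase gene Aldoc, the neural form of the enzyme that cleaves fructose bisphosphate, read 8.70, 8.84 and 8.82 on the empty vector arrays and 10.25, 10.30, 10.29 and 10.15 on the globin-labelled arrays. Every globin-labelled array lay more than 1 log2 unit above every empty vector array, and the rise was 1.46 ± 0.05, or 2.75-fold (limma adjusted p = 1.28e-07). Aldoa, the aldolase of most tissues, read 13.59, 13.83 and 13.85 against 13.80, 13.76, 13.76 and 13.70. These groups overlapped, and its difference was -0.00 ± 0.06 with a 95% interval from -0.15 to 0.14. Aldoa lay at the 98.6th percentile of levels, and all 4 of its probe sets differed by 0.02 or less in size.

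All 3 phosphofructokinase genes, whose products assemble into the tetramer that commits sugar to glycolysis, rose. The liver-type subunit gene Pfkl read 10.88, 10.97 and 10.93 on the empty vector arrays and 11.75, 11.65, 11.72 and 11.70 on the globin-labelled arrays, a rise of 0.77 ± 0.04 (1.71-fold, limma adjusted p = 1.85e-06). The muscle-type gene Pfkm read 10.46, 10.53 and 10.50 against 11.12, 11.15, 11.11 and 11.17, a rise of 0.64 ± 0.04 (1.56-fold, limma adjusted p = 3.12e-06). The platelet-type gene Pfkp read 11.66, 11.78 and 11.64 against 12.14, 12.08, 12.06 and 12.00, a rise of 0.38 ± 0.05 (limma adjusted p = 3.11e-04). For each of the 3 genes the groups did not overlap, and the arrays within a group differed by less than 0.2. The second Pfkl probe set rose by 0.70 ± 0.05, whereas the second Pfkp probe set, with 0.16 ± 0.09, did not pass (limma adjusted p = 0.191).

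Triose phosphate isomerase, which interconverts both products of that cleavage, is encoded by Tpi1. It read 12.22, 12.38 and 12.26 on the empty vector arrays and 12.68, 12.64, 12.70 and 12.60 on the globin-labelled arrays, and rose by 0.36 ± 0.05 (limma adjusted p = 4.00e-04), as its other 2 probe sets did. Hk1, the hexokinase of neurons and most other cells, rose by a smaller 0.16 ± 0.04 (limma adjusted p = 0.0112). Its second probe set had the same difference, 0.16 ± 0.07, and did not pass. With globin-labelled array 4 and empty vector array 1 both left out, Hk1 did not pass either (0.13, limma adjusted p = 0.0657). Hk2, the inducible hexokinase of muscle and many tumours, differed by -0.01 ± 0.04, with an interval from -0.10 to 0.08.

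From triose phosphate to pyruvate, 2 of 4 measured genes rose and 1 fell (over all genes, 20.6% and 20.1%), with a median change of 0.06. Pgk1, the first ATP-forming enzyme of glycolysis, read 13.19, 13.15 and 13.20 on the empty vector arrays and 13.43, 13.41, 13.38 and 13.38 on the globin-labelled arrays. The groups did not overlap, and the rise was 0.22 ± 0.04 (limma adjusted p = 0.00149), with its other 2 probe sets higher by 0.29 ± 0.06 and 0.20 ± 0.05. The mutase gene Pgam1 rose by 0.20 ± 0.05, from 12.37 ± 0.09 (SD, n = 3) to 12.57 ± 0.04 (SD, n = 4; limma adjusted p = 0.0117). The neuronal enolase gene Eno2 did not pass, with -0.09 ± 0.04 (interval -0.18 to 0.01).

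Pkm, the pyruvate kinase of brain, muscle and tumours, went the other way. It read 13.56, 13.63 and 13.60 on the empty vector arrays and 13.47, 13.46, 13.47 and 13.40 on the globin-labelled arrays. It fell by 0.15 ± 0.04 (limma adjusted p = 0.0147), a call that was lost without empty vector array 2 (-0.13, limma adjusted p = 0.0535). Pkm had 1 probe set. Gapdh was read on 3 control probe sets along its transcript, which differed by 0.03 to 0.05. The 3′ one read 14.09, 14.13 and 14.15 against 14.19, 14.18, 14.16 and 14.16, with every globin-labelled array above every empty vector array and a difference of 0.05 (exact permutation p = 0.0286, the smallest that 35 splits allow). The 5′ one overlapped between the groups (difference 0.03, exact permutation p = 0.343).

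Among genes of lactate formation and pyruvate carriage, 2 of 5 measured genes were higher and 2 lower (over all genes, 20.6% and 20.1%). Slc16a3, the low-affinity lactate exporter of glycolytic cells, read 9.67, 9.72 and 9.68 on the empty vector arrays and 10.71, 10.95, 10.80 and 10.66 on the globin-labelled arrays. It rose by 1.09 ± 0.07, or 2.13-fold (limma adjusted p = 3.33e-06). Slc16a1, the widely expressed monocarboxylate carrier, read 13.20, 13.16 and 13.14 against 12.80, 12.86, 12.93 and 12.85. It fell by 0.30 ± 0.04 (limma adjusted p = 4.63e-04), the largest fall among the 40 genes, and the groups of both carriers did not overlap.

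Ldha, the lactate dehydrogenase subunit that favours lactate formation, read 12.92, 12.98 and 12.99 on the empty vector arrays and 13.30, 13.30, 13.35 and 13.24 on the globin-labelled arrays. The rise was 0.33 ± 0.04 (1.26-fold, limma adjusted p = 2.44e-04). Ldhb, the subunit common in heart and oxidative tissue, did not pass on its brightest probe set, with 0.05 ± 0.05 (interval -0.05 to 0.15). Its dimmest of 4 probe sets fell by 0.56 ± 0.09, from 7.29 to 6.73, and the other 2 did not pass, so the Ldhb readings disagreed. Mpc1, a subunit of the carrier that takes pyruvate into mitochondria, read 13.36, 13.37 and 13.50 against 13.26, 13.28, 13.24 and 13.17, and fell by 0.17 ± 0.05 (limma adjusted p = 0.0215). The Mpc1 call was lost without empty vector array 3 (-0.13, limma adjusted p = 0.0762) and without globin-labelled array 4 (-0.15, limma adjusted p = 0.0525).

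At the entry of pyruvate into the cycle, Pdha1 fell and Pcx rose, while the other 3 genes did not pass. Pdha1, the catalytic alpha subunit of pyruvate dehydrogenase, read 11.68, 11.60 and 11.57 on the empty vector arrays and 11.39, 11.40, 11.44 and 11.47 on the globin-labelled arrays. The fall was 0.19 ± 0.04 (limma adjusted p = 0.00604), and its second probe set fell by 0.29 ± 0.06. The partner subunit genes Pdhb, Dlat and Dld differed by 0.05 ± 0.04, 0.03 ± 0.05 and 0.04 ± 0.05, with intervals between -0.08 and 0.15. The second Pdhb probe set differed by -0.05 ± 0.04, and the dimmest Dlat probe set by -0.15 ± 0.06 (limma adjusted p = 0.0528). The difference between Pdha1 and its partners was not tested.

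Pcx encodes pyruvate carboxylase, which makes oxaloacetate to refill the cycle. It read 8.32, 8.45 and 8.46 on the empty vector arrays and 8.99, 8.99, 9.07 and 9.03 on the globin-labelled arrays, and rose by 0.61 ± 0.05 (1.53-fold, limma adjusted p = 1.24e-05). The array also carries 4 control probe sets along this transcript, which were not part of that fit. The 3′ control differed by 0.47, the 2 middle ones by 0.43 and 0.20 (exact permutation p = 0.0286 for each of the 3, the smallest possible). The 5′ control differed by 0.14 and its groups overlapped (exact permutation p = 0.0571). Within an array, the 3′ control less the 5′ control was -0.39, -0.23 and -0.34 on the empty vector arrays and 0.05, 0.01, 0.05 and -0.08 on the globin-labelled arrays. The groups did not overlap in this measure, which differed by 0.33 (exact permutation p = 0.0286, the smallest possible). Adjusted over both transcripts, that permutation p was 0.0571. With 35 splits it could pass only if the Gapdh measure passed too, so the adjustment cannot decide for Pcx. The same measure for Gapdh differed by 0.02 (exact permutation p = 0.257).

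In the citrate cycle and its cytosolic partners, 7 of 15 genes rose and 0 fell by limma (over all genes, 20.6% and 20.1%). The median change was 0.12. At an unadjusted p under 0.05 in limma, 2 of the 15 were lower, Idh3a (-0.10) and Me1 (-0.14), on their brightest probe sets. The other Idh3a probe sets went the other way, with 0.13 ± 0.05 (limma unadjusted p = 0.0251) and 0.08 ± 0.05. The second Me1 probe set differed by -0.02 ± 0.04. The largest rise was that of Idh2, the mitochondrial isocitrate dehydrogenase that makes NADPH. It read 10.77, 10.78 and 10.75 on the empty vector arrays and 11.56, 11.55, 11.44 and 11.36 on the globin-labelled arrays, a rise of 0.71 ± 0.05 (1.63-fold, limma adjusted p = 1.26e-05). Idh1, its cytosolic counterpart, read 10.17, 10.23 and 10.33 against 10.32, 10.34, 10.50 and 10.37 and did not pass (0.14 ± 0.06, limma adjusted p = 0.0861). Quantile normalisation of the deposited values brought Idh1 past the threshold (0.17, limma adjusted p = 0.0389).

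The other 6 rises were smaller. Ogdh and Dlst, the first pair of subunits of the oxoglutarate dehydrogenase complex, rose by 0.22 ± 0.05 and 0.17 ± 0.04 (limma adjusted p = 0.00703 and 0.0120). Both nucleotide-specific subunits of succinate-CoA ligase rose, Sucla2 by 0.19 ± 0.04 and Suclg2 by 0.26 ± 0.06 (limma adjusted p = 0.00669 and 0.00758). Their shared partner Suclg1 did not pass, with 0.05 ± 0.04. Fumarase, Fh1, read 12.17, 12.15 and 12.27 against 12.46, 12.41, 12.42 and 12.35 and rose by 0.21 ± 0.05 (limma adjusted p = 0.00566). With globin-labelled array 4 and empty vector array 1 both left out, Dlst and Suclg2 did not pass (limma adjusted p = 0.0591 and 0.0651).

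Of the NAD-linked isocitrate dehydrogenase, only the regulatory subunit gene Idh3g passed, with 0.12 ± 0.04 (limma adjusted p = 0.0440). That call was lost when any array except globin-labelled array 3 was left out, with limma adjusted p between 0.0645 (empty vector array 3 left out) and 0.123 (empty vector array 1 left out). Its second probe set rose by 0.20 ± 0.05. The other subunit genes Idh3a and Idh3b differed by -0.10 ± 0.04 and -0.03 ± 0.04. Citrate synthase, Cs, the enzyme of cycle entry, differed by -0.05 ± 0.04, although the dimmest of its 3 probe sets fell by 0.21 ± 0.05. The malate dehydrogenase genes Mdh1 and Mdh2 differed by 0.08 ± 0.05 and 0.03 ± 0.04, with intervals from -0.03 to 0.18 and from -0.06 to 0.12. Me1, the cytosolic malic enzyme and a source of NADPH, differed by -0.14 ± 0.05 and did not pass (limma adjusted p = 0.0655). On its brightest probe set, Me1 passed as lower with trended, robust eBayes (limma adjusted p = 0.0414) and with dim probe sets filtered out (0.0474). Idh3a passed as lower, also on its brightest probe set, with trended, robust eBayes (limma adjusted p = 0.0404). The succinate dehydrogenase genes, from the wider list, did not pass on their brightest probe sets. The differences were 0.09 ± 0.04 for Sdha, 0.07 ± 0.04 for Sdhb, -0.10 ± 0.04 for Sdhc and -0.06 ± 0.04 for Sdhd. The second Sdha probe set was called changed.

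In the pentose phosphate pathway, 1 of the 3 measured genes was higher and 1 lower (over all genes, 20.6% and 20.1%), and 1 did not pass. Tkt, the transketolase of the branch that returns carbon to glycolysis, read 12.56, 12.70 and 12.63 on the empty vector arrays and 13.02, 13.01, 13.05 and 13.03 on the globin-labelled arrays. It rose by 0.40 ± 0.04 (1.32-fold, limma adjusted p = 9.38e-05), and its second probe set rose by 0.39 ± 0.08. Pgd, phosphogluconate dehydrogenase of the NADPH-forming branch, read 11.15, 11.24 and 11.16 against 10.92, 10.88, 11.05 and 11.07. It fell by 0.20 ± 0.06 (limma adjusted p = 0.0199), and all 4 of its probe sets fell, by 0.15 to 0.29. The Pgd call on the brightest probe set was lost without empty vector array 2 (-0.17, limma adjusted p = 0.0765) and without globin-labelled array 1 (-0.18, limma adjusted p = 0.0518). Taldo1, the transaldolase gene, differed by -0.05 ± 0.07.

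**Figure D2:**
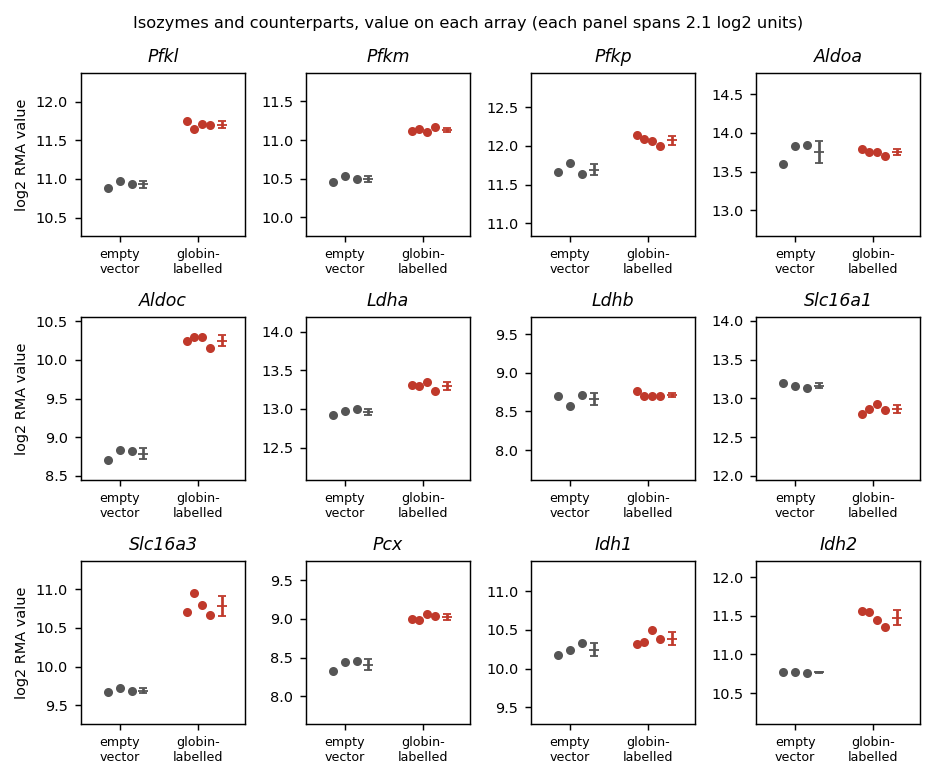
RMA value (log2) of 12 genes on each of the 3 empty vector and 4 globin-labelled arrays, with the mean and SD beside the points. Every panel spans an equal width on its axis, so the wide gap for Aldoc and Slc16a3 can be set against the overlap for Aldoa, Ldhb and Idh1. Slc16a1 alone of the 12 lies lower in the globin-labelled arrays without overlap.

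Whether isozymes changed unequally was tested on the difference between 2 genes within each array. Of 11 pairs listed, 10 could be compared, the exception being that of Eno1. The smallest exact permutation p that 35 splits allow is 0.0286. After adjustment over the 10 pairs, a pair could pass only if several others reached that smallest p too. The adjusted p therefore cannot decide for any single pair. A within-array difference shows unequal change of the log2 readings and not which form is more abundant. In some pairs 1 gene was far brighter, as with Aldoa (98.6th percentile of levels) beside Aldoc (59.0th). Bright signal may be compressed, and the part of this in the shifts was not tested. For Aldoc against Aldoa the difference was -4.97 ± 0.07 (SD, n = 3) and -3.50 ± 0.05 (SD, n = 4), a shift of 1.46 (exact permutation p = 0.0286, or 0.0409 after adjustment over 10 pairs). With the mean of all probe sets of a gene that shift was 0.84. The carriers Slc16a3 and Slc16a1 shifted by 1.39 and Idh2 against Idh1 by 0.57, with the same p and adjusted p. The groups of those carriers already lay apart in opposite directions, so those of their pair had to lie apart too. Among the phosphofructokinase genes, Pfkl and Pfkm each rose more than Pfkp, by 0.40 and 0.26 (the same exact p and adjusted p). Pfkl against Pfkm shifted by 0.14, which did not pass (exact permutation p = 0.0571, adjusted 0.0714).

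Ldhb against Ldha shifted by -0.28 (-0.49 with the mean of all probe sets) and Hk2 against Hk1 by -0.17, each with a exact permutation p = 0.0286 (adjusted 0.0409). The counterparts Mdh2 and Mdh1 shifted by -0.05 and Suclg2 and Sucla2 by 0.07, which did not pass (exact permutation p = 0.286 and 0.429, adjusted 0.318 and 0.429). The groups of both of these pairs overlapped, whereas those of the other 8 did not.

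**Figure D3:**
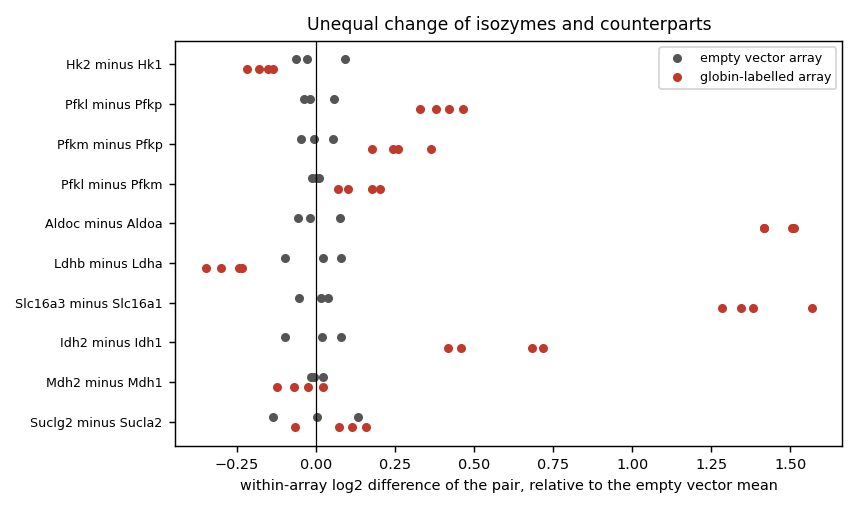
Within-array log2 difference of each of 10 gene pairs, shown relative to the empty vector mean, for 3 empty vector and 4 globin-labelled arrays. Points of the 2 groups are apart for 8 pairs, for example Aldoc minus Aldoa (shift 1.46) and Slc16a3 minus Slc16a1 (shift 1.39), and overlap for Mdh2 minus Mdh1 and Suclg2 minus Sucla2.

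Several of the genes had more than 1 probe set, and these mostly gave the same call. The exceptions were Hk1, Pfkp, Ldhb and Cs. Of the rises of at least 1.5-fold, those of Slc16a3, Pfkm, Idh2 and Pcx each rested on 1 probe set in the fit. The second probe set of Aldoc rose by only 0.21 ± 0.06, but at 5.03 and 5.24 it lay at the 8.10th percentile of levels, where a log2 change is one of dim signal. Averaging all probe sets of a gene instead gave 19 higher and 7 lower calls. With that average the Aldoc rise was 0.84 in place of 1.46, still called (limma adjusted p = 1.29e-06). Under that choice Ldhb was lower (-0.16, limma adjusted p = 0.00594) and so was Cs (-0.11, limma adjusted p = 0.0240).

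**Figure D4:**
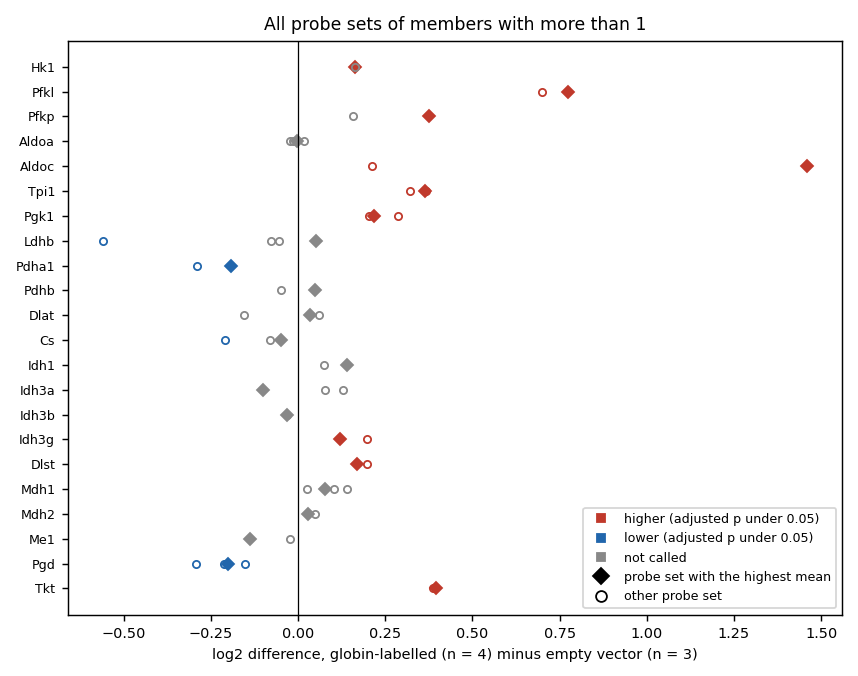
Log2 difference (globin-labelled, n = 4 arrays, minus empty vector, n = 3 arrays) of every probe set of the listed genes that have more than 1, with the brightest probe set as a filled diamond and the others as open circles, coloured by the limma call. The probe sets of Pfkl, Tpi1, Pgk1, Pgd and Tkt lie close together, whereas those of Aldoc (1.46 and 0.21) and Ldhb (0.05 to -0.56) lie apart.

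The changes of the genes beside them on the chromosome were read from the 5 measured genes on either side in RefSeq order. For Aldoc and Slc16a3 the 10 neighbours had median changes of -0.00 and 0.06, and for Idh2 the median was -0.14 with 5 of 10 neighbours lower. The neighbours of Pfkl and Pcx had medians of 0.14 and 0.09. Around Pfkm 8 of 10 neighbours were higher, with a median of 0.23 against 0.64 for Pfkm itself. Around Pgam1 8 of 10 were higher too, with a median of 0.33, above the 0.20 of Pgam1. The part of such shared shifts in the rises of Pfkm and Pgam1 was not tested.

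A further 81 genes of transport, regulation and branches of the same pathways were read from the same fit, and 60 of them were measured. Of these 17 rose and 5 fell, and the median change was 0.06. The shares, 28.3% higher and 8.33% lower, stand beside the 20.6% and 20.1% of all genes given above. The count of rises was 10 without empty vector array 2 and 9 without globin-labelled array 2, and the count of falls was 8 without empty vector array 1. Averaging all probe sets of a gene gave 22 higher and 14 lower.

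Of 10 sugar and sugar phosphate carriers measured, 3 rose and 1 fell (over all genes, 20.6% and 20.1%). Slc2a1, the basal glucose transporter, and Slc2a3, the neuronal one, differed by -0.13 ± 0.07 and 0.10 ± 0.04 and did not pass. Without empty vector array 1 Slc2a1 passed as lower (-0.22, limma adjusted p = 0.0175). On its brightest probe set, Slc2a3 passed as higher with trended, robust eBayes (limma adjusted p = 0.045). Slc2a8, an intracellular hexose transporter, read 9.79, 9.93 and 9.79 on the empty vector arrays and 10.11, 10.13, 10.09 and 10.04 on the globin-labelled arrays, and rose by 0.26 ± 0.05 (limma adjusted p = 0.00226). Slc2a5 and Slc2a10 rose by 0.16 ± 0.05 and 0.23 ± 0.08 (limma adjusted p = 0.0338 and 0.0456). Both calls were lost when empty vector array 2 (limma adjusted p = 0.124 and 0.170), empty vector array 3 (0.0831 and 0.0990), globin-labelled array 2 (0.0815 and 0.110) or globin-labelled array 4 (0.0799 and 0.110) was left out, and that of Slc2a10 also on leaving out globin-labelled array 3 (0.0838). Slc37a1, a sugar phosphate carrier, fell by 0.20 ± 0.04 (limma adjusted p = 0.00454), and Slc37a4, the glucose phosphate carrier of the endoplasmic reticulum, differed by -0.08 ± 0.04. Slc2a2, Slc2a4 and Slc2a9 did not pass, with 0.16 ± 0.06, 0.01 ± 0.05 and 0.18 ± 0.07. With the mean of all probe sets Slc2a4 passed as higher (0.15, limma adjusted p = 0.0185). Slc2a2 passed without empty vector array 3 (0.20, limma adjusted p = 0.0430) or globin-labelled array 1 (0.19, limma adjusted p = 0.0431), and Slc2a9 without empty vector array 1 (0.24, limma adjusted p = 0.0465). With median centring (limma adjusted p = 0.04825) and with the mean of all probe sets (0.0431) Slc2a2 passed as well, although it lay at the 5.24th percentile of levels.

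Kinases that switch off pyruvate dehydrogenase moved both ways. Pdk1 read 7.98, 7.87 and 8.00 on the empty vector arrays and 8.38, 8.27, 8.37 and 8.31 on the globin-labelled arrays, a rise of 0.38 ± 0.05 (limma adjusted p = 2.36e-04), or of 0.62 with the mean of its 2 probe sets. Pdk2 rose by 0.41 ± 0.08 (limma adjusted p = 0.00217), whereas Pdk3 fell by 0.28 ± 0.06 (limma adjusted p = 0.00284) and Pdk4 differed by 0.00 ± 0.07. Both rises were read below the array median, Pdk1 at the 40.9th and Pdk2 at the 26.5th percentile of levels. The kinase-phosphatase genes that make or remove the sugar bisphosphate activating phosphofructokinase did not pass on their brightest probe sets, with 0.01 ± 0.05 for Pfkfb2 and -0.08 ± 0.04 for Pfkfb3. The other 2 Pfkfb2 probe sets fell by 0.77 ± 0.08 and 0.36 ± 0.07, so the Pfkfb2 readings disagreed. With the mean of all probe sets Pfkfb2 passed as lower (-0.37, limma adjusted p = 1.80e-04).

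Among branch genes, the largest rise was that of Acly, which splits citrate in the cytosol for lipid synthesis. It read 12.21, 12.21 and 12.25 on the empty vector arrays and 12.90, 12.90, 12.86 and 12.89 on the globin-labelled arrays, a rise of 0.66 ± 0.04 (limma adjusted p = 1.80e-06). The largest fall was that of Bpgm, which diverts glycolytic carbon to bisphosphoglycerate, the red cell effector that lowers the oxygen affinity of hemoglobin. It read 9.31, 9.34 and 9.28 against 8.67, 8.67, 8.76 and 8.54, and fell by 0.65 ± 0.05 (1.57-fold, limma adjusted p = 1.99e-05), as its other 2 probe sets did by 0.42 and 0.37. Got1, the cytosolic aminotransferase of the malate-aspartate shuttle, rose by 0.43 ± 0.06, and Slc25a10, the dicarboxylate carrier, by 0.41 ± 0.05 (limma adjusted p = 3.63e-04 and 1.06e-04). Gpd2, the mitochondrial enzyme of the glycerol phosphate shuttle, fell by 0.41 ± 0.04 (limma adjusted p = 5.20e-05). Pck2, the mitochondrial phosphoenolpyruvate carboxykinase, rose by 0.40 ± 0.06 (limma adjusted p = 7.94e-04).

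**Figure D5:**
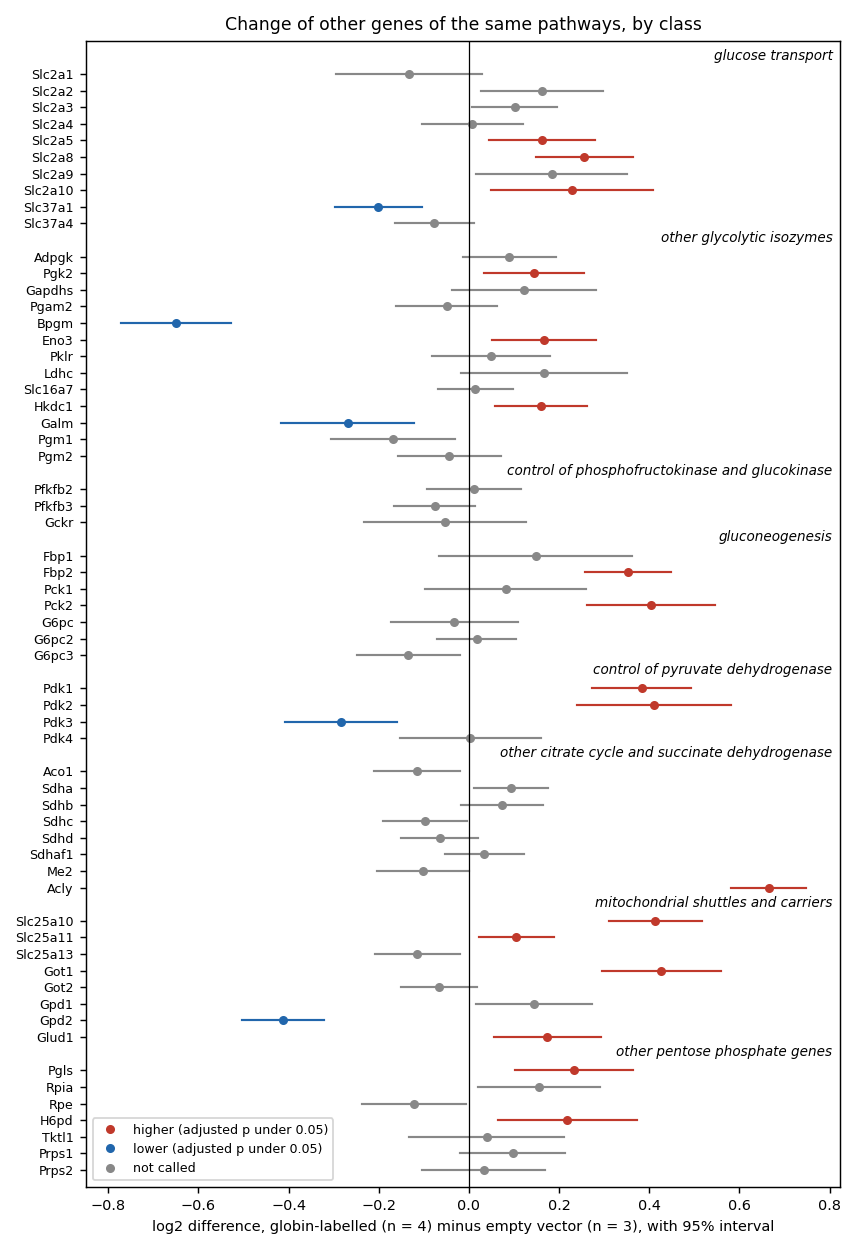
Log2 difference (globin-labelled, n = 4 arrays, minus empty vector, n = 3 arrays) of 60 further genes of the same pathways with 95% intervals from limma, grouped by class and coloured by the call. Acly lies farthest to the right at 0.66 and Bpgm farthest to the left at -0.65.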

How the data were processed

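Total RNA of 7 MN9D samples was amplified, labelled with biotin and hybridised to Affymetrix mouse arrays, per the labels' protocols. The authors deposited log2 values, and the submitters' processing notes name RMA, a method that subtracts background, makes array distributions alike and summarises probes. Its software and chip definition: not given in the sources used here. Such values hide a shift shared by most transcripts and may compress bright signal. Precision is limited by how many arrays there are. The deposited log2 values were used unchanged. Array controls (64) were set aside, and 22626 probe sets were fitted with limma 3.58.1 in R 4.3.3 (lmFit and eBayes with group alone), and the code was checked on simulated data. Symbols came from the platform's annotation, and probe sets with several symbols named no gene. Gene pairs and control probe sets were compared by exact permutation over arrays. All 45 listed genes are accounted for. Of the wider list the text names genes called with a log2 change of at least 0.4, all glucose transporters, pyruvate dehydrogenase kinases and Pfkfb genes. It also names the sugar phosphate carriers Slc37a1 and Slc37a4 and the succinate dehydrogenase genes Sdha, Sdhb, Sdhc and Sdhd. The genes and lists were chosen with earlier results of these data known. Motifs were searched in the 250 bases before each RefSeq start. Alternatives changed scaling, eBayes settings, a filter on dim probe sets, the probe set per gene, the arrays included and a replicate block.

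Same-numbered arrays did not deviate together: over all probe sets the correlations of their deviations from the group means were -0.36, -0.30 and -0.14, so the numbers were not taken to pair the samples.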

Additional observations from a re-analysis of the deposited data

Results flagged for a closer look

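In 79 groups of 4 arrays examined, 3 held an array that stood far from the other 3, where chance alone sets apart about 1 in 20. Pkm read 13.40 on globin-labelled array 4, below 13.46 to 13.47 on the other 3. Ldhb read 8.76 on globin-labelled array 1, above 8.70 on the other 3. Pfkfb2 read 8.32 on globin-labelled array 2, above 8.19 to 8.21 on the other 3.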

How the results depend on the processing

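Of the 24 called genes, 16 kept their direction and their call under every alternative run (14 of the 19 that rose, 2 of the 5 that fell). Over single genes and alternatives, 315 of 336 values of called genes kept direction and call and 21 lost the call. Of 224 values of genes not called, 207 kept both, 12 turned sign and 5 gained a call in the same direction. Among the 12, that of Ldhb with the mean of all probe sets passed as well, as lower (limma adjusted p = 0.00594). Leaving out each array in turn gave 18 to 19 rises and 3 to 5 falls among the 40 genes, and 9 to 15 rises and 5 to 8 falls among the further 60. With the replicate number as a block (numbers 1 to 3, so without globin-labelled array 4), 15 rose and 3 fell, and of the further genes 9 rose and 4 fell. The falls among the further genes numbered 10 with trended, robust eBayes, 9 with a filter at the 25th percentile and 14 with the mean of all probe sets. Values near 0 turned sign: Aldoa was 0.0053 with median centring and 0.014 with the block, Hk2 0.024, Slc2a4 -0.033 and Pdk4 -0.0032 with quantile normalisation. With the mean of all probe sets Dlat was -0.020 and Idh3a 0.035. Under that choice Ldhb (-0.16, limma adjusted p = 0.00594) and Pfkfb2 (-0.37, limma adjusted p = 1.80e-04) turned sign and passed as lower. With globin-labelled array 4 and empty vector array 1 both left out Pfkfb2 was -3.3e-05 and Suclg2 minus Sucla2 -0.029. Leaving out single arrays, Hk2 ran from -0.026 to 0.0094, Aldoa from -0.085 to 0.042, Mdh2 from -0.0046 to 0.049, Slc2a4 from -0.017 to 0.042, Pdk4 from -0.061 to 0.040 and Pfkfb2 from -0.019 to 0.036. The cause was not tested, apart from the fewer arrays or other probe sets that these settings use. Dim probe sets such as that of Pdk4, at the low end of levels, limit what can be read.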
